A study of Mus musculus with 547 samples.

Results

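Cytochrome P450 families 2, 3 and 4 were followed through mouse fetal liver development. Members were the genes of the deposited count tables whose symbol starts with Cyp2, Cyp3 or Cyp4 followed by a letter, with symbols marked as pseudogenes left out. This gave 79 of 40824 genes: 49 of family 2, 9 of family 3 and 21 of family 4. They fall into 20 subfamilies, of which Cyp2c with 15 members, Cyp3a and Cyp4f with 9 each, and Cyp2d, Cyp2j and Cyp4a with 8 each are the largest. All are protein-coding except the antisense gene Cyp4x1os, and 14 pseudogene symbols were left out.

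The study sorted liver cells that carry DLK on their surface (DLK+) every day from E10.5 to E18.5, with 2 bulk libraries a day, and cells from DLK+ and EpCAM+ gates for single-cell libraries from E10.5 to E17.5. EpCAM+ cells were labelled by the submitters as putative hepatoblasts or hepatocytes, or as putative cholangiocytes, and DLK+ cells as the former. Liver lobes of E12.5 were also cultured for 2 days with the solvent DMSO as control, with the protein kinase C agonist TPPB at 0.5 µM, with the MEK inhibitor U0126 at 10 µM, or with both. No genetic change is given for any group, the strain is not given in the sources used here, all groups are fetal, and bulk libraries were made from sorted pools of cells.

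Cytochromes P450 are haem enzymes of the endoplasmic reticulum that insert oxygen into their substrates, with electrons from P450 oxidoreductase (Por) and cytochrome b5. In the liver, families 2 and 3 oxidise drugs, toxins, steroids and bile acids, and family 4 mainly oxidises the end of fatty acid chains. In the mouse the families have grown by tandem duplication, so most members lie in gene clusters of close copies. Hepatoblasts, the DLK+ precursors, give rise to hepatocytes, where most of these enzymes act in the adult, and to cholangiocytes, the cells of the bile ducts.

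The genes were on chromosome 19 (Cyp2c), 15 (Cyp2d), 5 (Cyp3a), 4 (Cyp2j, Cyp4a, Cyp4b and Cyp4x), 17 (most Cyp4f) and 7 (Cyp2a, Cyp2b, Cyp2f, Cyp2g, Cyp2s and Cyp2t) of GRCm38. Close copies share reads that counting cannot place with certainty. Of the 50-base stretches in the transcripts of Cyp3a41a, 98.6% occur in another gene's transcripts, and the share was 93.5% for Cyp3a41b. It was 72.1% for Cyp2c40, 54.8% for Cyp2c69, 52.8% for Cyp2c67, 49.4% for Cyp4a12b and 46.8% for Cyp4a32. For Cyp2c68 it was 43.3%, for Cyp2a5 40.8% and for Cyp2d10 40.5%. Values of these members are therefore uncertain between copies. The share was 10.7% for Cyp3a16, between 10% and 11% for Cyp2d26, and 0.0% for Cyp2c70 and Cyp2c44.

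Upstream sequence was compared because copies in one cluster reached their levels on different days. RefSeq promoters (build GRCm38.p6) were used as windows of 250 bases before each gene's start, and 62 of the 79 members had a window within 1000 bases of the gene start in the GENCODE M21 annotation. The letters CAAAGTCCA, a core of binding sites for HNF4A, a hepatocyte nuclear receptor, were searched on both strands. They occurred in 10 of 62 member windows (16.1%) and in 0.384% of all 32851 windows. All 10 were of Cyp2c genes (6 of 12 windows) or Cyp3a genes (4 of 9), with 0 of 14 in family 4. The matches below are given 5′ to 3′ on the gene's strand, which is the minus strand for each, with 10 bases on both sides and the matched letters in capitals.

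Cyp2c68 (chr19:39741160-39741188): atcattgaaaCAAAGTCCAattggaagag

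Cyp2c40 (chr19:39812841-39812869): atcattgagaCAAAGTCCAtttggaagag

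Cyp2c69 (chr19:39886826-39886854): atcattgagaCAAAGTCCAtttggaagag

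Cyp2c67 (chr19:39649149-39649177): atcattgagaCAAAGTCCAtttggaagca

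Cyp2c70 (chr19:40187332-40187360): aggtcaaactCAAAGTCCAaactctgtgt

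Cyp3a16 (chr5:145469804-145469832): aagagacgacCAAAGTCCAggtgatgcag

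The 29 bases of Cyp2c40 and Cyp2c69 were identical, and those of Cyp3a41a and Cyp3a41b were identical to those of Cyp3a16. The remaining holders were Cyp3a11 and Cyp2c65. Duplicated genes share this sequence by descent, so the windows are not independent, and a match is a description of letters, not of binding. Among the other motifs, TATAAA was in 35.5% of member windows and 12.4% of all windows, the C/EBP letters TTGCNNAA in 22.6% and 9.56%, the HNF1 letters GTTAATNAT in 4.84% and 0.737%, and the nuclear receptor core AGTTCA in 17.7% and 11.8%.

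Among members with a window, those of the largest rises in families 3 and 4 follow, where the window ends before the annotated gene. Cyp4a10, Cyp4a12a, Cyp4a14 and Cyp4a31 had no window and were not ranked. Capitals mark any motif of the search.

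Cyp3a16 (chr5:145469724-145469973, minus strand): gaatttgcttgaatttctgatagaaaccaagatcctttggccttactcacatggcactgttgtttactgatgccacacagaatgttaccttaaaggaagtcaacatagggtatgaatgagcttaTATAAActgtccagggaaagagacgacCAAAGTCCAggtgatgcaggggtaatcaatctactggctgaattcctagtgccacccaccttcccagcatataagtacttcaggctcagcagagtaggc

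Cyp3a44 (chr5:145805875-145806124, minus strand): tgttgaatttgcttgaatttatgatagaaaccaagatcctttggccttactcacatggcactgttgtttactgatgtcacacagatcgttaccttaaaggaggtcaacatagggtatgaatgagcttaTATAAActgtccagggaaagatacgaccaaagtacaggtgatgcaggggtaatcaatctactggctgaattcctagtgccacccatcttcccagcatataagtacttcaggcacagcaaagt

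Cyp4a32 (chr4:115600688-115600937, plus strand): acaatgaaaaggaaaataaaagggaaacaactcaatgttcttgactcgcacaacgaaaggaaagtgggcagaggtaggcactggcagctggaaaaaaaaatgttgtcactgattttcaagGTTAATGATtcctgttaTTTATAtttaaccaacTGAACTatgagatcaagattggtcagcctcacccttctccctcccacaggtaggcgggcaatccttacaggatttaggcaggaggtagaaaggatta

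Cyp3a16 and Cyp3a44 were identical at 236 of 246 aligned bases (95.9%). The 9 letters that match in Cyp3a16 carry C7A in Cyp3a44, where positions count from 1 at the 5′ end of the motif and the base of Cyp3a16 comes first. The Cyp4a32 window holds the HNF1 letters on the gene's strand and the TATA and receptor core letters on the opposite strand.

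Bulk libraries held 14385574 to 22791119 reads in genes, and single cells 763480 to 2111839 reads. Levels are read counts divided by the scaled library size (CPM), and levels compared between genes are in TPM, which also divides by gene length. The summed level of 8 hepatocyte markers in bulk DLK+ libraries was 2975 to 3626 CPM at E10.5 and 351333 to 414139 CPM at E18.5. Summed stellate and mesenchymal markers (10 genes) went from 791 to 1017 CPM down to 9.06 to 108 CPM, granulocyte markers (9 genes) from 4.18 to 5.21 CPM up to 283 to 604 CPM, and cholangiocyte markers (8 genes) from 92.7 to 112 CPM to 95.5 to 151 CPM. The part of these in the results below was not tested. In bulk libraries, fewer cells of a type and less RNA per cell cannot be told apart.

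The first question was when the families appear in DLK+ cells and which members carry the total. Summed over the 79 members, the level was 155 and 156 TPM in the 2 libraries of E10.5 and 5978 and 5982 TPM in those of E18.5. Means by day were 156, 335, 428, 486, 843, 1430, 1872, 3371 and 5980 TPM. The total was higher on each day than on the day before, and most of it was added after E16.5. Family 2 went from a mean of 107 to 4878 TPM, family 3 from 3.18 to 772 TPM and family 4 from 45.3 to 331 TPM.

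At E10.5 the total was carried by few genes. Cyp2c68 had 50.8 ± 0.489 TPM (SD, n = 2), which was 32.6% of the members' sum, followed by Cyp2d22 at 16.7 TPM, Cyp4f15 at 15.2 TPM and Cyp2c70 at 11.8 TPM. At E14.5 Cyp2c68 still led at 243 TPM (28.8% of the sum), followed by Cyp2d26, at 94.7 and 158 TPM in its libraries, and Cyp2d10, at a mean of 89.9 TPM. By E18.5 Cyp2d26 led at 1390 ± 79.8 TPM (23.3% of the sum), ahead of Cyp2c68 at 654, Cyp2c70 at 530, Cyp2c69 at 517, Cyp2e1 at 514, Cyp3a16 at 452 and Cyp2c40 at 427 TPM. The lead thus passed from a Cyp2c to a Cyp2d gene. Cyp2d26 was first from E15.5, with 435 TPM that day against 296 TPM for Cyp2c68.

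**Figure D1:**
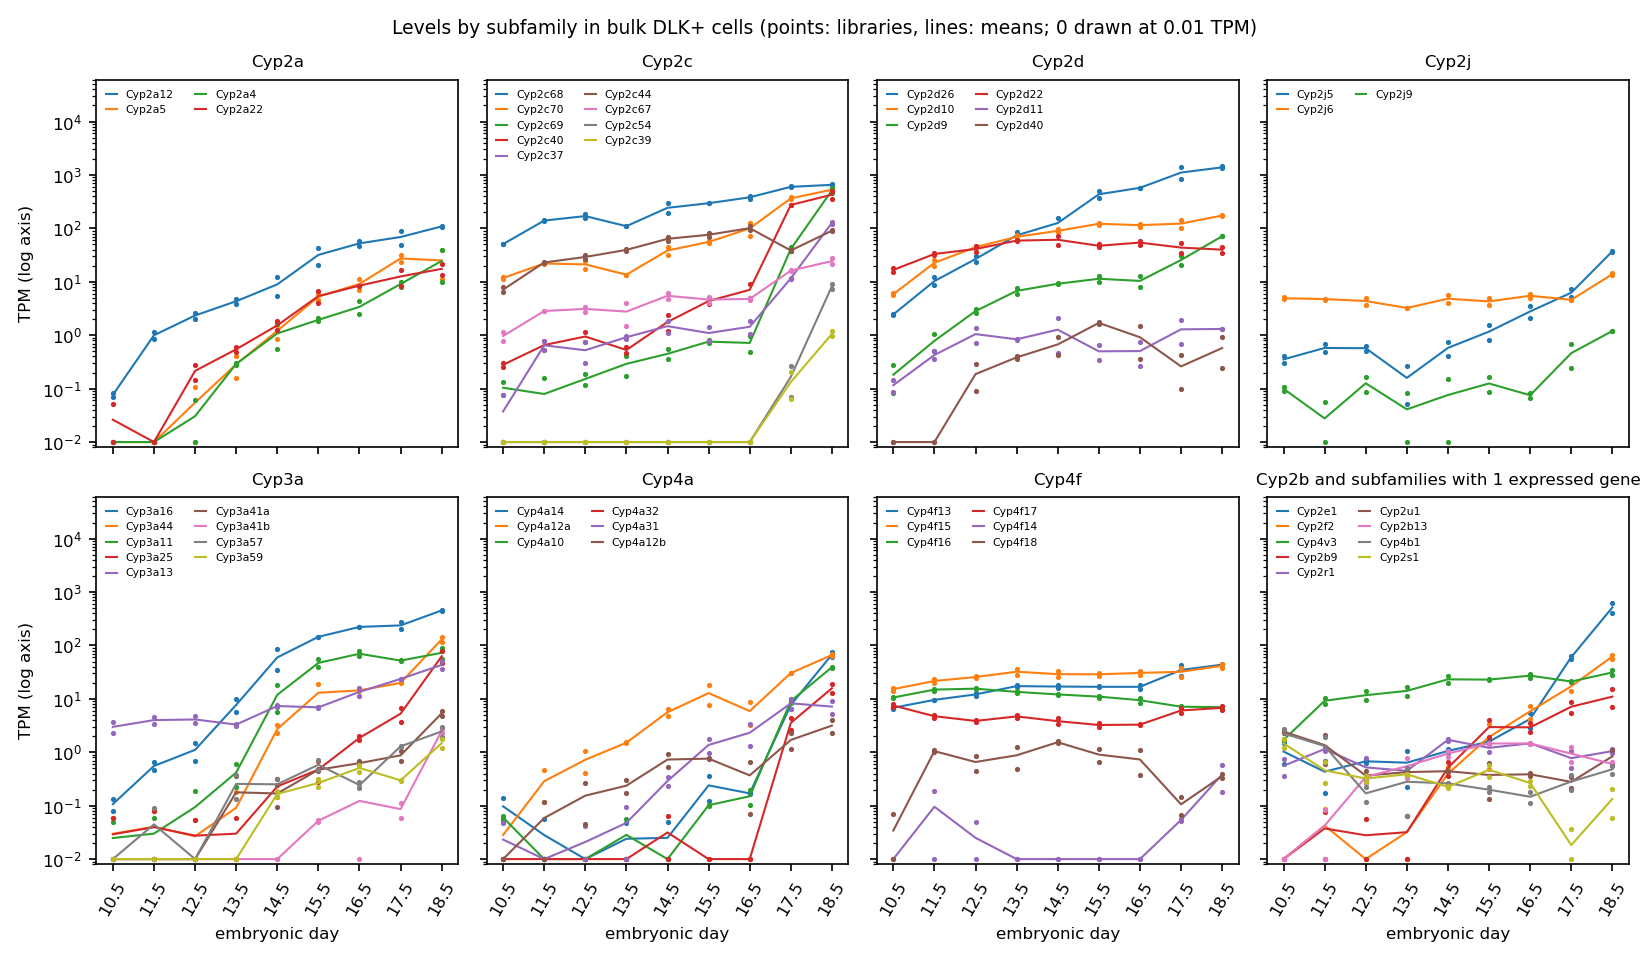
Level of each expressed member (TPM, log axis) against embryonic day in bulk DLK+ cells, 1 panel per subfamily or group of small subfamilies, with points for libraries, lines for means and 0 drawn at 0.01 TPM. Cyp2c68 is the highest Cyp2c member on every day, Cyp2d26 starts below Cyp2d22 and is the highest Cyp2d member from E13.5 on, Cyp4f15 goes from 15.2 to 41.7 TPM, and Cyp2e1 climbs late to a mean of 514 TPM at E18.5.

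At E18.5, 48 of 52 members tested were higher than at E10.5, against 32.6% of the 15275 genes tested, and 1 was lower, against 32.5% (edgeR quasi-likelihood test, Benjamini-Hochberg adjusted p under 0.05). A member that is silent early passes the filter on low counts only through the days on which it is high, so the count describes these members and is not evidence about the family. The median fitted change of the members tested was 8.87 on the log2 scale, a value that for members without a read at E10.5 depends on the prior count, and that of all genes tested was −0.02. Of the 27 members not tested, 10 had no read in any bulk library: Cyp2b23, Cyp2c65, Cyp2c66, Cyp2d34, Cyp2j7, Cyp2j11, Cyp2j12, Cyp4a29, Cyp4a30b and Cyp4x1os. In all, 27 members stayed under 1 CPM in every library. The number at 1 CPM or more in both libraries went from 14 at E10.5 through 23 at E14.5 to 46 at E18.5, and 13 were at that level on every day.

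Cyp2c68 (ENSMUSG00000074882, chr19:39688834-39741054), the leading member of the early liver, was at 23.3 and 22.3 CPM at E10.5 and at 1080 and 974 CPM at E18.5. The 2 groups were far apart, with a log2 change of 5.49 ± 0.25 (SE, edgeR quasi-likelihood test, Benjamini-Hochberg adjusted p = 3.5e-10). Cyp2d26 (ENSMUSG00000022445, chr15:82790101-82794294) went from 1.06 and 1.04 CPM to 2321 and 1865 CPM, a log2 change of 10.95 ± 0.54 (edgeR, adjusted p = 6.3e-10). It was higher than the highest E10.5 library on every later day.

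Cyp2c70, which makes muricholic acid, the bile acid particular to mice and rats, was at 5.15 and 5.42 CPM at E10.5 and at 868 and 790 CPM at E18.5, a log2 change of 7.29 ± 0.35 (edgeR, adjusted p = 5.2e-10). Cyp2e1, which oxidises ethanol and other small solvents, was at 0.718 and 0.276 CPM and at 1103 and 635 CPM, a log2 change of 10.73 ± 0.57 (edgeR, adjusted p = 1e-09). Cyp4v3, a fatty acid hydroxylase, was at 1.72 and 1.66 CPM and at a mean of 109 ± 24.4 CPM (SD, n = 2), a log2 change of 6.01 ± 0.29 (edgeR, adjusted p = 5.9e-10). None of the 3 had an E18.5 library near the E10.5 range.

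Other members had no read or nearly none at E10.5. Against a floor of 3 reads per library, Cyp2a5, the coumarin hydroxylase, rose at least 451-fold by E18.5 (22.5 and 66.5 CPM), Cyp2a4 at least 374-fold, Cyp4a32 at least 227-fold, Cyp2b9 at least 196-fold, Cyp2c54 at least 136-fold and Cyp3a41a at least 101-fold. Cyp3a16, the main Cyp3a of the fetal mouse liver, had 0.0625 and 0.0345 CPM at E10.5 and 773 and 654 CPM at E18.5. Cyp3a11, the main Cyp3a of the adult, had 0.0312 and 0 CPM and then 129 and 178 CPM. With so few reads at E10.5, levels of these 2 are given without a fold.

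A few members did not rise. Cyp2s1 was lower at E18.5, with 0.999 and 1.41 CPM at E10.5 and 0.181 and 0.562 CPM at E18.5, a log2 change of −1.73 ± 0.67 (edgeR, adjusted p = 0.035). That call was lost without library 1 of E18.5 (adjusted p = 0.2), without library 2 of E10.5 (0.14), without library 1 of E10.5 (0.05) and in DESeq2 (0.065). Cyp2u1, at 1.44 and 1.52 CPM at E10.5 and 1.36 and 2.14 CPM at E18.5, Cyp4b1, an enzyme known from the lung, and Cyp4x1 did not pass the test. Because strand use in counting is not stated, reads of Cyp4x1 and of the antisense Cyp4x1os cannot be told apart.

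**Figure D2:**
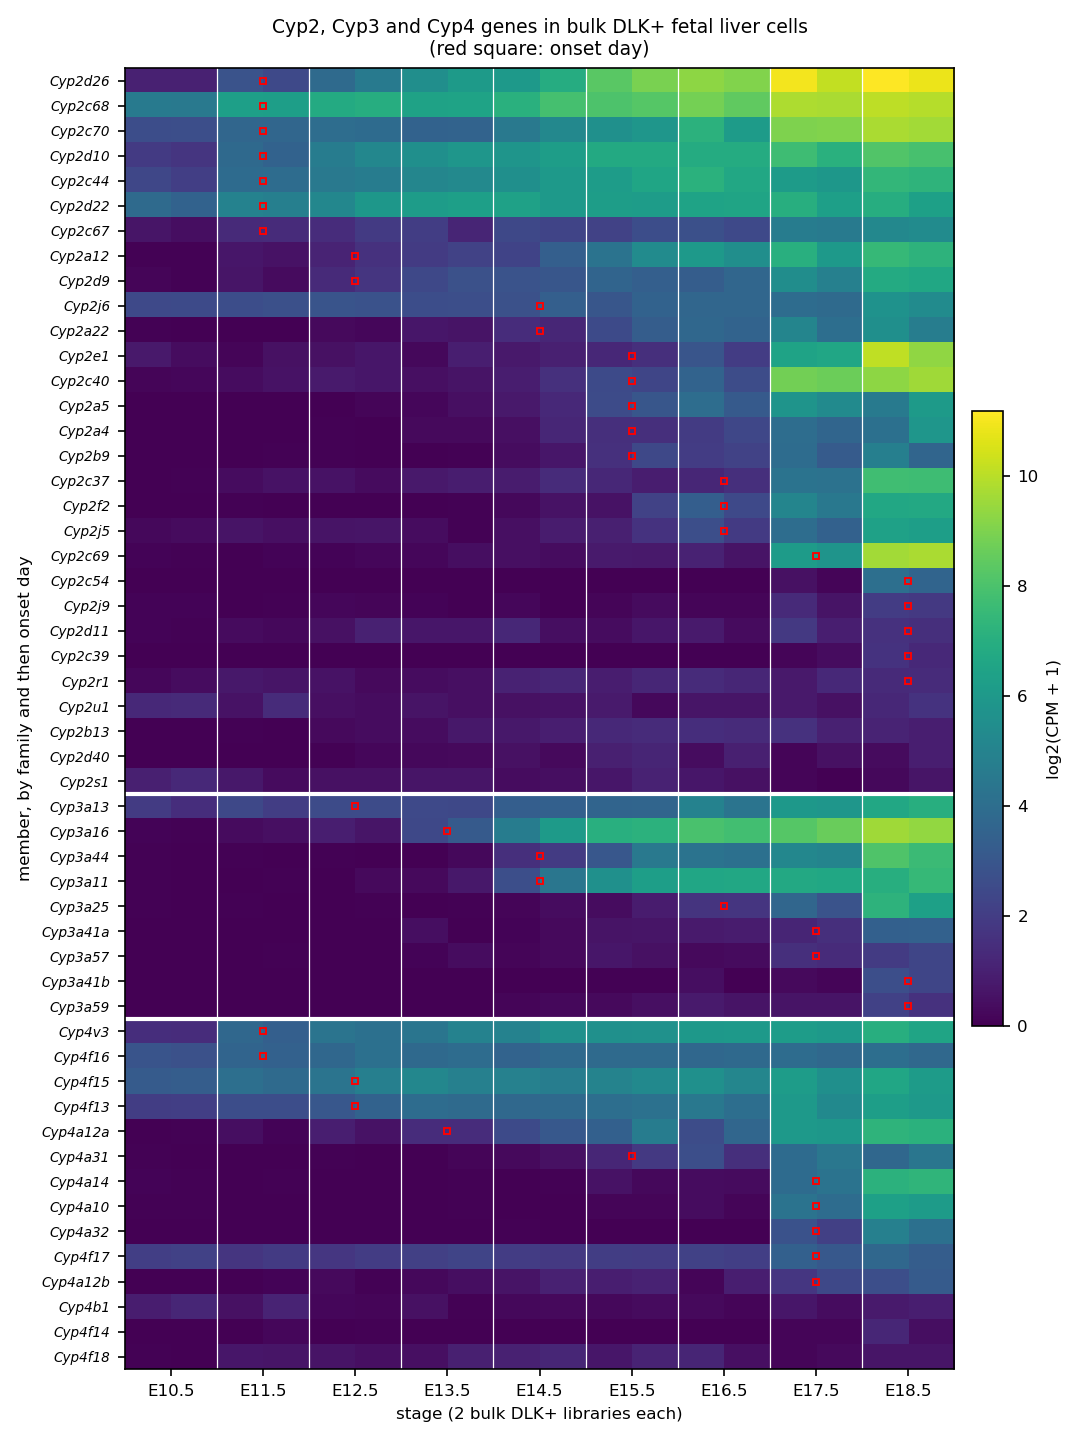
Level of each member with 1 CPM or more in a bulk library (colour, log2 of CPM plus 1) in each of the 18 bulk libraries (columns, E10.5 to E18.5), ordered by family and then by onset day, which a red square marks. Members turn bright at different days, and Cyp4a10, Cyp4a14 and Cyp4a32 stay dark until E17.5.

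Day steps show when the members moved. Each day was compared with the day before, in one fit over all 18 libraries, so neighbouring steps share libraries. The steps with most members called higher were E17.5 and E18.5, with 26 and 18 members, and E14.5 and E11.5 followed with 13 and 12.

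At E11.5, 12 members were higher than at E10.5, against 9.55% of all genes tested. Cyp4v3 rose by a log2 change of 2.70 ± 0.27, Cyp2d26 by 2.35 ± 0.45, Cyp2d10 by 2.23 ± 0.25, Cyp2c44, an arachidonic acid epoxygenase, by 1.95 ± 0.22, and Cyp2c68 by 1.75 ± 0.21. Cyp2c68, for example, had 77.3 and 75.6 CPM at E11.5 against 23.3 and 22.3 CPM the day before. Without library 2 of E10.5 the count was 6, and without library 1 of E11.5 it was 7.

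At E12.5, 2 members were higher (Cyp2d10 and Cyp2d9), against 0.426% of all genes, and at E13.5, 5 (Cyp2d9, Cyp2d10, Cyp2d26, Cyp3a16 and Cyp3a57), against 5.06%. At E14.5, 13 were higher, against 15.4%, a share of all genes that is itself large. They included 5 Cyp3a genes and Cyp2c40, Cyp2c44, Cyp2c68 and Cyp2c70. Of the Cyp3a genes, Cyp3a59 had only 6 reads at E14.5 and 0 at E13.5. Cyp3a57, named at E13.5, had 7 reads on that day and 0 at E12.5. Cyp3a11 had 0.234 and 0.669 CPM at E13.5 and 5.47 and 19.7 CPM at E14.5, a log2 change of 4.81 ± 0.65, and Cyp3a16 had 4.4 and 7.86 CPM and then 24.9 and 67.4 CPM, a change of 2.92 ± 0.38. In both genes the E14.5 libraries lay above those of E13.5 but also stood apart from each other, with library 2 the higher one. With each library's trend with gene GC content removed, the counts at E13.5 and E14.5 were 1 and 3, and with the compared days fitted alone no member passed at E12.5, E13.5, E14.5 or E15.5. Single libraries also mattered: the E12.5 count was 0 without library 1 or 2 of E11.5 or library 2 of E12.5, the E13.5 count 1 without library 1 of E12.5 and 2 without library 2 of E13.5, and the E14.5 count 7 without library 1 of E13.5 and 6 without library 2 of E13.5 or library 2 of E14.5.

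At E15.5, 2 members were higher (Cyp2d26 and Cyp3a44), against 0.19% of all genes. Cyp2d26 had 63.6 and 121 CPM at E14.5 and 317 and 484 CPM at E15.5, a log2 change of 2.12 ± 0.36 (edgeR, adjusted p = 0.031). The count was 0 without library 1 of E14.5 or library 2 of E15.5, 10 without library 2 of E14.5 and 7 without library 1 of E15.5. At E16.5 no member was called by edgeR, against 0.0% of all genes, while 11 had an unadjusted p under 0.05 and DESeq2 called 1. The share of all genes at that unadjusted p is not given here, for this or other comparisons. Among the 11, Cyp4a12a went down, from a mean of 17.6 to one of 8.43 CPM with overlapping libraries (log2 change −1.06 ± 0.41, edgeR, p = 0.022). Without library 2 of E16.5 the count of members called by edgeR was 2.

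At E17.5, 26 members were higher, against 5.89% of all genes. Cyp2c69 (chr19:39842814-39886799) had 1.11 and 0.483 CPM at E16.5 and 69.7 and 54.5 CPM one day later, a log2 change of 6.26 ± 0.31 (edgeR, adjusted p = 3.3e-08). Its neighbour Cyp2c40 had 10.9 and 5.07 CPM and then 441 and 402 CPM, a change of 5.72 ± 0.33 (edgeR, adjusted p = 1.3e-07). In both genes every E17.5 library lay far above both E16.5 libraries.

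All 6 Cyp4a genes tested were among them, enzymes that oxidise fatty acids. Of these, Cyp4a10 and Cyp4a14 are known targets of the receptor PPARα. For Cyp4a12a and Cyp4a31 the rise at E17.5 was not the first, since by the onset rule given below theirs began at E13.5 and E15.5. Cyp4a10 had 0.277 and 0.121 CPM at E16.5 and 18.1 and 14.4 CPM at E17.5 (log2 change 6.29 ± 0.38). Cyp4a14 had 0.277 and 0.241 CPM and then 14 and 18.4 CPM (5.93 ± 0.40). Cyp4a32, the copy whose window is printed above, had no read at E16.5 and 5.96 and 3.33 CPM at E17.5, at least 26.8-fold higher.

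Cyp2e1 had 6.64 and 2.96 CPM at E16.5 and 89.5 and 97.3 CPM at E17.5, a log2 change of 4.27 ± 0.43 (edgeR, adjusted p = 2.8e-05). Cyp2c44 was the one member called lower, with 141 and 103 CPM at E16.5 and 68.8 and 60.1 CPM at E17.5, a change of −0.92 ± 0.20 (edgeR, adjusted p = 0.007), against 7.21% of all genes. This call was lost without library 1 of E16.5 (adjusted p = 0.06), and Cyp2c44 was back at 170 and 154 CPM at E18.5. The count of members called at E17.5 was 16 without library 2 of E16.5 or library 1 of E17.5.

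At E18.5, 18 members were higher, against 3.02% of all genes. Cyp2c69 reached 802 and 857 CPM (log2 change 3.74 ± 0.24), Cyp4a14 146 and 160 CPM (3.23 ± 0.27), Cyp2e1 1103 and 635 CPM (3.22 ± 0.39) and Cyp2j5, an epoxygenase, 83.7 and 75.5 CPM (2.67 ± 0.36). Cyp2c37 rose by 3.56 ± 0.25 and Cyp3a25 by 3.68 ± 0.40. Cyp2c54 went from a mean of 0.253 CPM to one of 13.4 CPM, but DESeq2 did not call it (adjusted p = 0.63).

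Onset was set as the first day on which a member was called higher than at E10.5 and at 1 CPM or more in both libraries, with both holding on every later day. All 8 later days share the E10.5 libraries. By this rule 45 members had an onset and 34 had none. The counts were 9 at E11.5, 5 at E12.5, 2 at E13.5, 4 at E14.5, 6 at E15.5, 4 at E16.5, 8 at E17.5 and, on the last day, 7.

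Subfamilies differed in how their members were spread. Cyp2c and Cyp2d members had onsets from E11.5 to E18.5 and Cyp3a from E12.5 to E18.5, Cyp2a from E12.5 to E15.5, Cyp2j from E14.5 to E18.5, Cyp4a from E13.5 to E17.5 and Cyp4f from E11.5 to E17.5. Subfamilies in which 1 member had an onset had a single day: Cyp4v at E11.5, Cyp2b and Cyp2e at E15.5, Cyp2f at E16.5 and Cyp2r at E18.5. The day of Cyp2r is not one of first detection. Cyp2r1 already had 1.1 and 1.33 CPM at E14.5 and 1.6 and 1.33 CPM at E16.5. Library 1 fell under 1 CPM at E15.5 (0.876 CPM) and at E17.5 (0.707 CPM). Cyp2ab, Cyp2g, Cyp2s, Cyp2t, Cyp2u, Cyp2w, Cyp4b and Cyp4x had none. Cyp2g1 is known from the olfactory mucosa.

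The summed level of Cyp2c, Cyp2d, Cyp2j, Cyp3a, Cyp4f and Cyp4v was already at 1 CPM or more in both libraries at E10.5. The first onset day in each of them is therefore a day of rise, not of first detection. For many of their later members the onset day was also the first day at that level, as for Cyp3a16 at E13.5, Cyp3a11 at E14.5 and Cyp2c69 at E17.5. Summed Cyp2a reached that level at E12.5, Cyp4a at E13.5, Cyp2b and Cyp2e at E15.5, and Cyp2f at E16.5. At E10.5 summed Cyp2b and Cyp2f were at 0 in both libraries, and at E18.5 at 28.6 and 12.3 CPM and at 103 and 107 CPM.

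Among Cyp2c genes, Cyp2c44, which lies apart from the others at chr19:44005022-44029208, Cyp2c67, Cyp2c68 and Cyp2c70 had their onset at E11.5, Cyp2c40 at E15.5, Cyp2c37 at E16.5, Cyp2c69 at E17.5, and Cyp2c39 and Cyp2c54 at E18.5. Within Cyp3a the days were E12.5 for Cyp3a13, E13.5 for Cyp3a16, and E14.5 for Cyp3a11 and Cyp3a44. Later came Cyp3a25 at E16.5, Cyp3a41a and Cyp3a57 at E17.5, and Cyp3a41b and Cyp3a59 at E18.5. The separate days of Cyp3a41a and Cyp3a41b are uncertain, because reads of these copies can hardly be told apart. Members whose windows hold the HNF4A letters were spread over the same range: E11.5 for Cyp2c67, Cyp2c68 and Cyp2c70, E13.5 for Cyp3a16, E14.5 for Cyp3a11, E15.5 for Cyp2c40, E17.5 for Cyp2c69 and Cyp3a41a, E18.5 for Cyp3a41b, and none for Cyp2c65. Cyp3a16 and Cyp3a44, with windows 95.9% identical, had means of 6.13 and 0.0836 CPM at E13.5, 46.2 and 2.35 CPM at E14.5 and 714 and 234 CPM at E18.5.

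Over 24 settings, some onset days moved. Cyp3a13, which sets the first day of Cyp3a, went to E14.5 with total reads only and without library 2 of E10.5. Cyp4f15 went to E11.5 in 7 settings and Cyp4f13 in 5. Cyp2c67 went to E12.5 in 3 settings and Cyp2d22 in 2, each time without 1 library of E10.5 or E11.5, and Cyp2c54 had none in DESeq2. Cyp2j6 ranged from E13.5 to E18.5. When libraries were scaled by total reads only, Cyp2c70 went to E14.5, Cyp2e1 to E16.5, and Cyp4f16, Cyp4f17 and Cyp2r1 had none. Cyp2c70 and Cyp4f16, which sets the first day of Cyp4f, also went to E12.5 without any 1 library of E10.5 or E11.5. Cyp2e1 also went to E16.5 without library 2 of E10.5 or library 1 or 2 of E15.5. Scaling by total reads moved the median change of all genes from E10.5 to E18.5 by −1.45 on the log2 scale.

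Lists of partner and regulator genes were read over the same 9 days. Of 17 genes for redox partners and haem supply, 14 were higher at E18.5 than at E10.5, against 32.6% of all genes tested, with a list median of 1.58 on the log2 scale. Por had a mean of 58.7 CPM at E10.5 and 702 CPM at E18.5, a change of 3.58 ± 0.23 (edgeR, adjusted p = 5.4e-09), and Cyb5a, cytochrome b5, 62.3 and 610 CPM, a change of 3.29 ± 0.16. Of 36 nuclear receptors and other regulators, 30 were higher and 3 lower (Foxa1, Dbp and Hnf4g), against 32.6% and 32.5% of all genes, with a median of 2.17. Hnf4a had means of 280 and 800 CPM (1.52 ± 0.21), Cebpa 47.0 and 442 CPM (3.23 ± 0.25), and the prolactin receptor Prlr 0.574 and 198 CPM (8.42 ± 0.41).

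Of 24 genes of other P450 families, 16 were tested, with a median of 0.93. Of these, 7 were higher, against 32.6% of all genes, and 5 lower, a share close to the 32.5% of all genes. The higher ones included the bile acid enzymes Cyp7a1 (0.352 and 384 CPM), Cyp8b1 (0.0781 and 193 CPM) and Cyp27a1 (1.85 and 166 CPM). Among the lower ones were Cyp1b1, at 8.78 CPM at E10.5 and 0 at E18.5, and Cyp26b1, which degrades retinoic acid, at 3.77 and 0.225 CPM. Among families 2 to 4, 1 member was called lower over the same days. The limit from the filter on low counts, given above, holds for that count, so it is not evidence of a difference between the families.

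Single cells show which cells carried these levels. Cells of one group (day, gate and putative type) were summed per set number of the labels, each sum holding 2 cells or more, and the sums were treated as replicates. The labels do not say what a set is, so p-values measure only the spread between sets, which may be technical. In set 3 of E14.5, 1 cholangiocyte-labelled cell has a protocol that tells of culture, although its other labels give none, and it was kept among the embryo cells. All sums of set 3 of E14.5, in both gates, belong to a later round of sample records than the other embryo sums. The embryo fit had no term for the round, so its part in the comparisons that use E14.5 was not tested. Cells picked as DLK+ had their hepatocyte markers at 4478 to 6893 CPM at E10.5 and 302639 to 359972 CPM at E17.5. At E17.5 the cholangiocyte markers Krt19 and Spon1 were at 0 in them. The other cholangiocyte markers are not given for these cells, so this does not show that the cells were free of cholangiocytes.

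In DLK+ cells, 36 of 56 members tested were higher at E17.5 than at E10.5, against 14.2% of all genes tested, and none was lower. At E13.5 12 members were higher than at E10.5, against 6.25%, at E15.5 3 were higher than at E13.5, against 0.665%, and at E17.5 11 were higher than at E15.5, against 2.57%. The 3 of E15.5 were Cyp3a11, Cyp2c44 and Cyp2a22.

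Cyp2c68 had 43.2, 57.6 and 42.5 CPM in the 3 sums of E10.5, 231, 278 and 284 CPM at E13.5, 517, 694 and 535 CPM at E15.5, and 2125, 2479, 2193 and 1958 CPM in the 4 sums of E17.5. No 2 of these days overlapped, and the change from E10.5 to E17.5 was 5.52 ± 0.40 on the log2 scale (edgeR, adjusted p = 2.1e-12). In the cells themselves, 50 of 54 DLK+ cells at E10.5 (92.6%) and 35 of 35 at E17.5 had 10 TPM or more of Cyp2c68, so it was read in nearly every cell at both ends.

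Cyp3a11 was at 0.0663, 0.409 and 0 CPM at E13.5 and at 276, 27.7 and 223 CPM at E15.5, a log2 change of 9.71 ± 1.37 (edgeR, adjusted p = 0.0005). At E15.5 it reached 10 TPM in 22 of 39 cells, 17 of which also had Cyp3a16, and 8 cells had neither. At E17.5 all 35 cells had Cyp3a16, and 19 of them Cyp3a11 as well. Of the 2 Cyp3a genes, the fetal one was thus read in every cell at E17.5 and the adult one in part of them. For the E15.5 step as a whole, the count was 1 without set 1, 2 or 3 of E13.5 or set 4 of E15.5, and Cyp2c44 (means of 41.2 and 135 CPM) lost its call with any 1 set of the 2 days left out.

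Cyp2c40 had 3.8, 2.19 and 3.4 CPM at E15.5 and 317, 822, 357 and 134 CPM at E17.5, a log2 change of 7.01 ± 0.81 (edgeR, adjusted p = 9.8e-07). Cyp2c69 had 0.646, 1.83 and 0.556 CPM and then 109, 407, 431 and 118 CPM, a change of 8.11 ± 0.85 (edgeR, adjusted p = 3.1e-07). At E17.5 Cyp2c40 reached 10 TPM in 32 of 35 cells, and 21 of the 35 cells had both. Because these copies share reads, cells with both are uncertain. Cyp4a10 had no read at E15.5 and was at least 274-fold higher at E17.5. The step from E15.5 to E17.5 had 6 members called without set 3 of E15.5, and 7 without set 4 of E15.5 or set 2 of E17.5.

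Cyp2e1 and Cyp2f2 were uneven between cells. Cyp2e1 had 1.21, 3.53 and 0.618 CPM at E15.5 and 55.5, 574, 194 and 0.282 CPM at E17.5, so set 4 lay below all 3 sums of E15.5 although the step passed the test (log2 change 6.90 ± 1.22, edgeR, adjusted p = 0.00046). It reached 10 TPM in 5 of 35 cells at E17.5 (14.3%, exact Clopper-Pearson 95% interval 4.81% to 30.3%), with a highest cell at 2425 TPM. By set these were 1 of 14, 1 of 8, 3 of 8 and 0 of 5 cells, so the sums rest on few cells.

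Cyp2f2, which oxidises naphthalene and is a periportal gene in the adult liver, had 2.18, 1.83 and 2.04 CPM at E15.5 and 40.2, 110, 88.3 and 38.9 CPM at E17.5. It reached 10 TPM in 21 of 35 cells at E17.5 (60%, interval 42.1% to 76.1%) and in 0 of 54 at E10.5. Of the 35 cells, 2 had both Cyp2e1 and Cyp2f2, 3 had Cyp2e1 alone, 19 Cyp2f2 alone and 11 neither. These intervals cover counting error only.

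**Figure D3:**
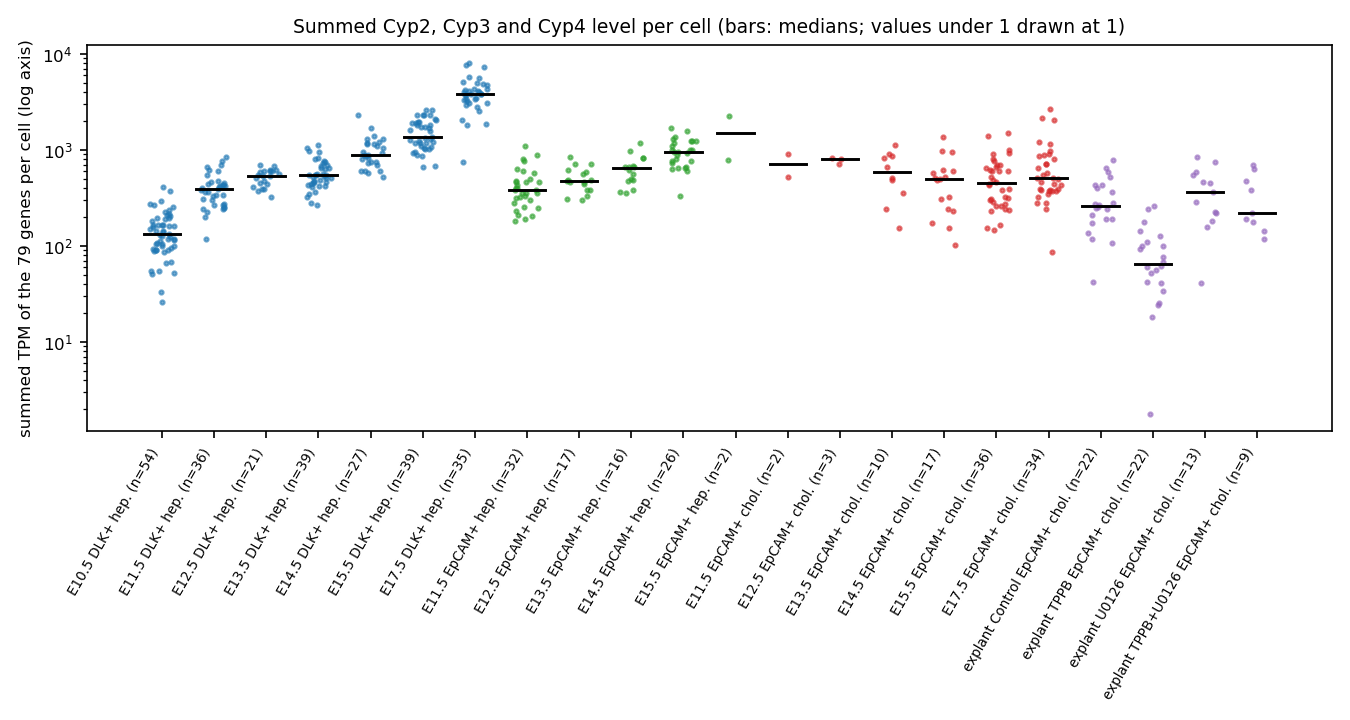
Summed TPM of the 79 members in each cell (points, log axis, with bars for medians and values under 1 drawn at 1), for DLK+ cells by day, EpCAM+ cells labelled hepatoblast or hepatocyte, EpCAM+ cells labelled cholangiocyte, and EpCAM+ explant cells labelled cholangiocyte by treatment. The median of DLK+ cells goes from 132 TPM at E10.5 to 3802 TPM at E17.5, and that of cholangiocyte-labelled cells from 584 TPM at E13.5 to 506 TPM at E17.5.

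Per cell, the median number of members at 10 TPM or more went from 3.5 in DLK+ cells at E10.5 to 19 at E17.5. In cells labelled cholangiocyte it was 8 at both E14.5 and E15.5 and lay between 10 and 11 at E17.5. Their summed level had medians of 499 TPM at E14.5, 453 at E15.5 and 506 at E17.5, while that of DLK+ cells had medians of 880, 1352 and 3802 TPM on those days. Before that the order was the other way round, with medians of 713, 792 and 584 TPM in the 2, 3 and 10 cholangiocyte-labelled cells of E11.5, E12.5 and E13.5, and of 389, 534 and 545 TPM in DLK+ cells.

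The next question was how cholangiocyte-labelled cells differ from DLK+ cells of the same days. The comparison used E14.5, E15.5 and finally E17.5, with 9 sums against 10. The days from E11.5 to E13.5, with 1 cholangiocyte-labelled sum each, did not enter it. Of the members, 22 were lower in cells labelled cholangiocyte, against 16% of all genes tested, and 6 were higher, against 19%. Without the cell whose protocol tells of culture, 23 were lower and 6 higher. In the cholangiocyte-labelled cells of E17.5, cholangiocyte markers were at 7457 to 10911 CPM and hepatocyte markers still at 30477 to 49419 CPM. The part of the latter in the members' levels was not tested.

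Cyp2j6, an arachidonic acid epoxygenase, was the clearest of the higher members. It had 22.1, 40.9 and 27.4 CPM at E14.5, 65.8, 109 and 79.4 CPM at E15.5 and 88.8, 65.3 and 107 CPM at E17.5 in cholangiocyte-labelled cells, and 9.43, 4.92, 18.3 and 20.6 CPM in DLK+ cells of E17.5. The 2 classes did not overlap (mean 67.3 ± 32.1 CPM, SD, n = 9, against 12.4 ± 5.55 CPM, n = 10), with a log2 difference of 2.32 ± 0.28 (edgeR, adjusted p = 3.7e-08). It reached 10 TPM in 31 of 34 cholangiocyte-labelled cells of E17.5 and in 2 of 35 DLK+ cells. Cyp2j6 was thus read in most cells of the biliary class and few of the other.

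The other higher members overlapped between classes. Cyp2j5 differed by 2.85 ± 0.87 on the log2 scale (edgeR, adjusted p = 0.011), Cyp4a31 by 3.70 ± 0.94 (0.0027), Cyp4f15 by 0.65 ± 0.18 (0.0047) and Cyp4f16 by 0.85 ± 0.30 (0.026). Cyp2j9 had no read in the DLK+ sums and was at least 5.21-fold higher. The 3 Cyp2j genes of this class were in one gene cluster on chromosome 4.

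Members of Cyp2c, Cyp2d and Cyp3a were lower. Cyp2c68 had 180, 260 and 113 CPM at E14.5, 127, 59.6 and 130 CPM at E15.5 and 108, 32.7 and 144 CPM at E17.5 in cholangiocyte-labelled cells, and no sum reached the lowest DLK+ sum of those days, 306 CPM. The log2 difference was −2.78 ± 0.20 (edgeR, adjusted p = 1.4e-12). Cyp2d10 had means of 6.69 and 151 CPM (−4.62 ± 0.30, adjusted p = 6.4e-14), Cyp2d26 13.4 and 830 CPM (−5.12 ± 0.61, adjusted p = 3.9e-08), and Cyp2c44 22.1 and 110 CPM (−2.44 ± 0.23, adjusted p = 2.9e-10), again with no overlap between the classes. Cyp3a11 did not exceed 0.298 CPM in any cholangiocyte-labelled sum and had a mean of 120 CPM in DLK+ sums.

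**Figure D4:**
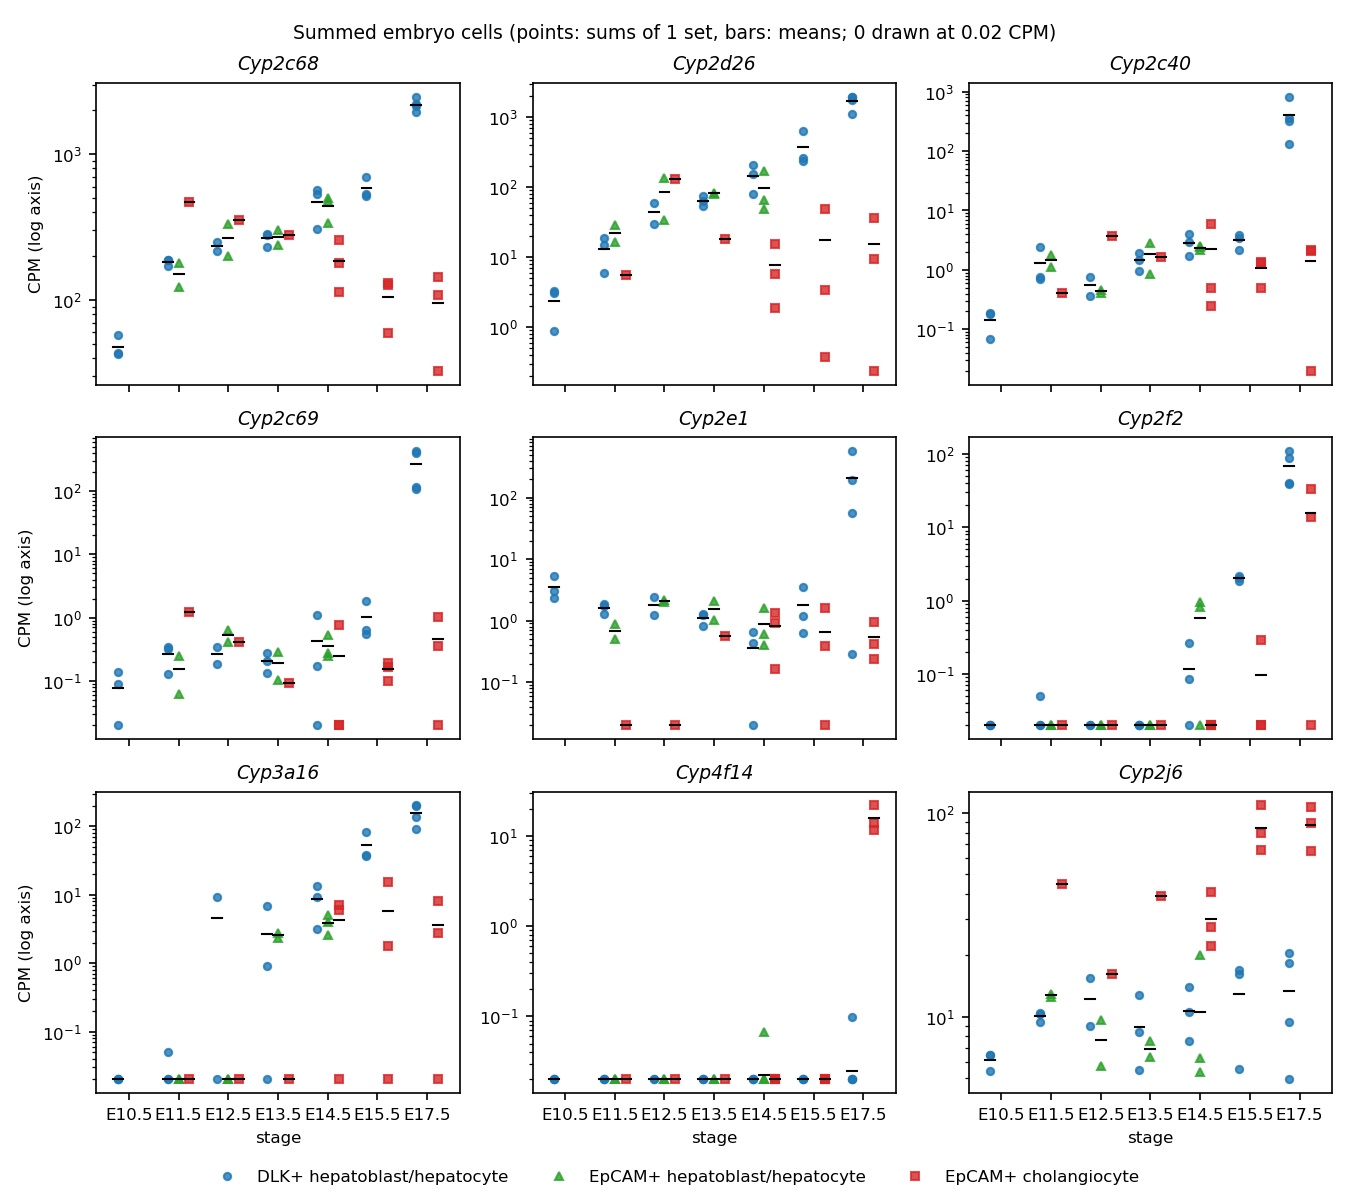
Level of 9 members (CPM, log axis) in each embryo sum by day, with points for sums of 1 set, bars for means, 0 drawn at 0.02 CPM, and separate symbols for DLK+, EpCAM+ hepatoblast or hepatocyte and EpCAM+ cholangiocyte sums. At E17.5 the DLK+ sums of Cyp2c68 (1958 to 2479 CPM) and Cyp2d26 lie far above the cholangiocyte sums, and Cyp2j6 and Cyp4f14 lie the other way round.

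Change with age was then read within the biliary class. Between E14.5 and E17.5, 3 members were higher in cholangiocyte-labelled cells (Cyp4f14, Cyp2f2 and Cyp3a13), against 1.13% of all genes tested, and 2 were lower (Cyp2d10 and Cyp2c44), against 2.13%. Cyp4f14, a leukotriene B4 hydroxylase, had no read at E14.5 and 22.1, 14 and 11.9 CPM at E17.5, at least 39.8-fold higher (edgeR, adjusted p = 0.0096). It was called neither by DESeq2 (adjusted p = 0.58) nor with the set number as a block (0.084). At E17.5 it reached 10 TPM in 14 of 34 cholangiocyte-labelled cells (41.2%, interval 24.6% to 59.3%) and in 0 of 35 DLK+ cells.

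Cyp2f2 had no read at E14.5 and 33.5, 0 and 13.7 CPM at E17.5, so set 3 stayed at 0, and 3 of 34 cells carried it. DESeq2 did not call it (adjusted p = 0.069). Cyp3a13 had means of 5.63 and 43.1 CPM (log2 change 2.94 ± 0.72, edgeR, adjusted p = 0.018), and lost its call without set 2 (0.074) or 3 (0.07) of E14.5 or set 3 of E17.5 (0.061). Cyp2d10 fell from a mean of 10.6 to 2.13 CPM (−2.13 ± 0.50) and Cyp2c44 from 32.8 to 11.2 CPM (−1.54 ± 0.40). Both were lost when sums needed 5 cells (adjusted p = 0.053 and 0.1), and the count of 5 was 3 without set 1 or 3 of E14.5 or set 3 of E17.5.

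The change from E14.5 to E17.5 was compared between the classes by an interaction term. For 6 members it was more positive in DLK+ cells, against 2.11% of all genes tested: Cyp2e1 by 9.33 ± 1.75, Cyp2c69 by 8.18 ± 1.37, Cyp2c40 by 7.60 ± 1.08, Cyp2c67 by 7.13 ± 1.64, Cyp2c68 by 3.17 ± 0.48 and Cyp2d10 by 3.05 ± 0.65 on the log2 scale. All 6 had an adjusted p under the threshold, from 4.1e-05 for Cyp2c40 to 0.0098 for Cyp2c67 (edgeR). The Cyp2e1 difference rests on the few DLK+ cells of E17.5 that carried it, as given above. Of the 6, 4 are Cyp2c genes, and Cyp2c40, for instance, had 2.06, 0 and 2.15 CPM in cholangiocyte-labelled cells at E17.5. These 4 are close copies between which reads cannot be placed with certainty, so they are not 4 separate measurements. In the cholangiocyte-labelled cells, without set 3 of E14.5, which is of the later round, the Cyp2c69 difference was 3.14 (adjusted p = 1.0). Without only the cell of that set whose protocol tells of culture it was 8.30 and still called. Without set 1 of E14.5, Cyp2c67 had an adjusted p of 0.056.

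EpCAM+ cells labelled hepatoblast or hepatocyte were compared with DLK+ cells over E11.5 to E14.5. No member of 56 tested was called by edgeR, against 0.0238% of all genes, while 3 had an unadjusted p under 0.05 (Cyp2a12, Cyp2b13 and Cyp4a12b) and DESeq2 called 1. Median summed levels per cell were 380 TPM in the EpCAM+ cells and 389 TPM in the DLK+ cells at E11.5, and 944 and 880 TPM at E14.5. A test that is not passed does not show that the gates are alike.

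Finally, the explants asked whether culture with TPPB or U0126 moves these genes. The EpCAM+ cells of each treatment were summed per set, with 4 control sums of 2 to 10 cells, 2 TPPB sums (sets 1 and 2) of 10 and 12 cells, 2 U0126 sums (sets 3 and 4) of 5 and 10 cells and 2 sums of both (sets 3 and 4) of 4 and 5 cells. The fit had a term for sets 1 and 2 against sets 3 and 4, and 22 members were tested. The TPPB and the U0126 comparisons share the control sums.

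With TPPB, 3 members were lower than in controls, against 1.89% of all genes tested. Cyp2c68 had 333, 75.9, 109 and 306 CPM in control sets 1 to 4 and 0.0676 and 0 CPM in TPPB sets 1 and 2 (edgeR, adjusted p = 0.0015), with 1 read left in all. Cyp2c70 had 4.66, 4.3, 22.1 and 12.1 CPM and no read with TPPB (adjusted p = 0.0056). Cyp2d10 had 69.4, 2.36, 15.2 and 61.7 CPM and no read with TPPB (adjusted p = 0.044). Within sets 1 and 2 alone, both TPPB sums lay below both control sums for all 3 genes. The Cyp2d10 call was lost without control set 1 (adjusted p = 0.13), 3 (0.052) or 4 (0.051) and without TPPB set 1 (0.17) or 2 (0.19).

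Other members had the same order without passing the test. Cyp2d26 had 14.7, 16, 11.3 and 133 CPM in controls and no read with TPPB (adjusted p = 0.051), and Cyp2c44 8.58, 2.58, 10.1 and 20.8 CPM and no read (adjusted p = 0.062). Cyp4v3 had 27.2, 82.5, 66.8 and 23.1 CPM and then 0.0676 and 2.88 CPM (adjusted p = 0.094). Cyp2j6, in contrast, was read with TPPB at 28.1 and 21 CPM, within the control range of 37.8, 24.3, 3.73 and 0 CPM.

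**Figure D5:**
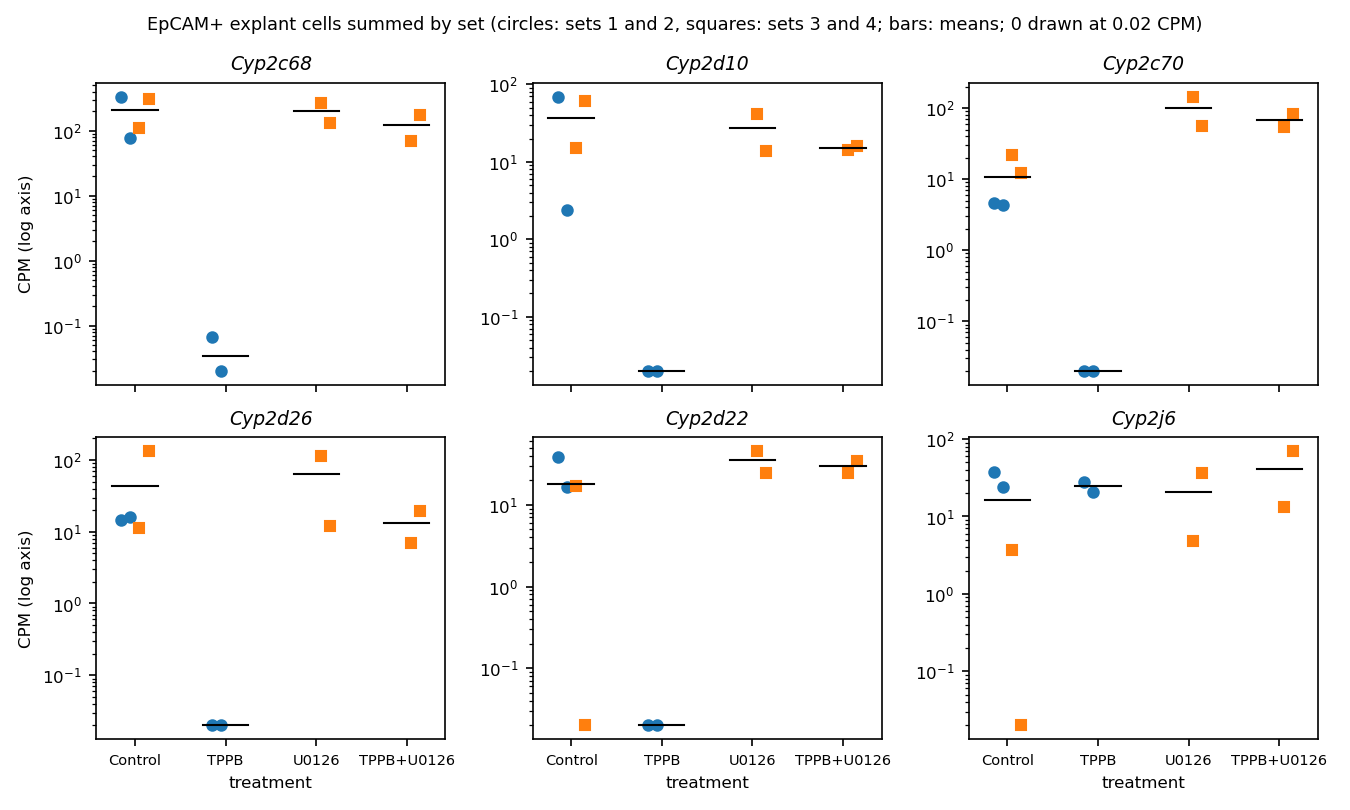
Level of 6 members (CPM, log axis) in each EpCAM+ explant sum, by treatment (control, TPPB, U0126, both), with circles for sets 1 and 2, squares for sets 3 and 4, bars for means and 0 drawn at 0.02 CPM. The 2 TPPB points of Cyp2c68, Cyp2c70 and Cyp2d10 lie at or near 0, and those of Cyp2j6 lie among the controls.

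In the cells, Cyp2c68 reached 10 TPM in 20 of 22 control EpCAM+ cells labelled cholangiocyte and in 0 of 22 TPPB cells with that label. Cyp2j6 reached it in 7 of 22 and 11 of 22. Summed hepatocyte markers were 41528 to 124644 CPM in the control sums and 204 to 314 CPM with TPPB, where Cps1 was at 0, and cholangiocyte markers 288 to 7259 CPM and 11479 to 12485 CPM. The part of this shift in the members' levels was not tested. The control sums include 1 hepatoblast-labelled cell each in sets 1 and 4, and with cholangiocyte-labelled cells alone Cyp2d10 had an adjusted p of 0.058.

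In DLK+ explant cells, which had 6 control cells and 6 TPPB cells of 1 set and so no test, Cyp2c68 reached 10 TPM in 6 of 6 cells of both groups, with medians of 442 and 606 TPM. Cyp2c70 had medians of 101 and 485 TPM there, and Cyp2d10 of 105 and 65.3 TPM. The genes that were near 0 in EpCAM+ cells with TPPB were thus read in the DLK+ cells of the same culture condition.

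With U0126, no member was called against controls by edgeR or DESeq2, against 0.0% of all genes tested. In edgeR, 2 had an unadjusted p under 0.05, Cyp2c70 and Cyp2j6. Cyp2j6 had 4.85 and 36.8 CPM with U0126, within the control range of 0 to 37.8 CPM. Cyp2c68 had 271 and 133 CPM with U0126. Cyp2c70 had 145 and 55.7 CPM, above every control sum (p = 0.0054, adjusted p = 1.0), and Cyp3a11 6.02 and 6.77 CPM, with no read in controls. Set 3 of U0126, the sum at 145 CPM, includes 2 hepatoblast-labelled cells among its 5, and set 4 none. With cholangiocyte-labelled cells alone, again 0 members were called. With both compounds against U0126 alone, again no member was called by edgeR or DESeq2, against 0.0% of all genes, and 1 (Cyp4f15) had an unadjusted p under 0.05.

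With both compounds, Cyp2c68 had 69.5 and 176 CPM, Cyp2c70 53.8 and 83.0 CPM, Cyp2d10 14.4 and 15.8 CPM and Cyp4v3 73.1 and 72.7 CPM. Each of these lay above the TPPB sums of the same gene. TPPB alone was used in sets 1 and 2 and the combination in sets 3 and 4, so the 2 were not compared by a test. With 2 sums a treatment, a member that misses the threshold is not shown to be unaffected.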

How the data were processed

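Poly(A) RNA of sorted DLK+ cells was sequenced in bulk, and hand-picked single cells were sequenced by Smart-seq2. The authors deposited raw read counts per gene, with gene length in bases as a further column (unit other, per the file headers). Reads were mapped to GRCm38/mm10 with TopHat2 2.1.0 and Bowtie2 and counted with HTSeq 0.6.0, per the submitters' processing notes, and the strand setting is not given in the sources used here.

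CPM, TPM and sums of cells per group and set were computed here from the counts, leaving out 92 spike-in rows. The tests used edgeR 4.0.16 (TMM scaling, filterByExpr, quasi-likelihood F test, Benjamini-Hochberg adjustment over all genes tested, call at 0.05) in R 4.3.3, with DESeq2 1.42.0 as an alternative. The SE was taken as the size of the log2 change over the root of its F value. The scripts were tested on simulated data. Depth limits low levels: 3 reads per library served as the floor.

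The members and gene lists were chosen with earlier results of these data known. Named per comparison were called members at 1 CPM or more whose replicates do not overlap (the 12 largest rises and 6 largest falls), the member with the highest TPM of each subfamily, and up to 5 called genes per pathway list. Other genes were named after their values were seen, among them members that overlap or miss the threshold. Of 151 list genes 150 were found. A result on a gene of the list for redox partners and haem supply is not reported here. Promoters came from RefSeq (GRCm38.p6) and gene positions from GENCODE M21 (GRCm38). Alternatives were other scalings, DESeq2, no filter, left-out replicates, a replicate block, GC correction, single-comparison fits, larger sums, and cholangiocyte-labelled explant cells alone.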

Additional observations from a re-analysis of the deposited data

Results flagged for a closer look

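In 59 groups of 4 to 10 samples the highest or lowest value was compared with its neighbour, and chance flags about 1 in 20 such groups. In the 4 DLK+ sums of E17.5, set 2 stood apart for Cyp2a4, at 60.4 CPM with the others at 0 to 0.982 CPM, and for Cyp2c54, at 5.12 CPM with the others at 0. Set 3 stood apart for Cyp2c67, at 75.9 CPM with the others at 35.1 to 41.1 CPM, and for Cyp4f15, at 60.1 CPM with the others at 32.8 to 36.6 CPM. Set 4 stood apart for Cyp2u1, at 4.51 CPM with the others at 0.

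Among the 4 EpCAM+ control explant sums, set 4, a sum of 2 cells of which 1 is labelled hepatoblast, stood apart for Cyp2a22, at 15 CPM with the others at 0 to 0.219 CPM, and for Cyp2d26, at 133 CPM with the others at 11.3 to 16 CPM. Its part in the level of Cyp2d26 was not tested.

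The change from E14.5 to E17.5 differed between DLK+ and cholangiocyte-labelled cells for 6 members by the interaction term (edgeR quasi-likelihood test, Benjamini-Hochberg adjusted p). On the log2 scale the difference was 9.33 for Cyp2e1 (adjusted p = 0.0015), 8.18 for Cyp2c69 (0.00041), 7.60 for Cyp2c40 (4.1e-05), 7.13 for Cyp2c67 (0.0098), 3.17 for Cyp2c68 (9.4e-05) and 3.05 for Cyp2d10 (0.0054). Each was more positive in DLK+ cells. That of Cyp2e1 rests on few DLK+ cells of E17.5.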

How the results depend on the processing

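Counts of members called are given here, and those not mentioned stayed within 1.5 times the value reported. The shares of all genes under the alternatives are not given, here or above. A changed count therefore does not show how the members moved against other genes. With DESeq2, 4 members were called at E12.5 against the day before, 14 at E15.5 and 1 at E16.5, 6 for DLK+ cells of E15.5 against E13.5, 10 for the interaction, 1 for EpCAM+ against DLK+ hepatoblasts and 8 for TPPB. Without the filter on low counts the numbers were 9 at E12.5, 13 at E13.5, 21 at E14.5, 16 at E15.5, 12 at E16.5 and 9 for TPPB. With only the compared days fitted they were 0 at E12.5, E13.5, E14.5 and E15.5, and with the GC trend removed 1 at E13.5 and 3 at E14.5. With sums of 5 or more cells, 6 were called for E15.5 against E13.5, and 35 members had an onset by E14.5 where no minimum level was asked, against 20. The cause was not tested.

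Leaving out 1 library or sum at a time gave 48 to 49 members for E18.5 against E10.5, and for the day steps from E11.5 to E18.5 6 to 9, 0 to 3, 1 to 6, 6 to 15, 0 to 10, 0 to 2, 16 to 26 and 12 to 14. In DLK+ cells it gave 29 to 36 for E17.5 against E10.5, 8 to 10 for E13.5 against E10.5, 1 to 2 for E15.5 against E13.5 and 6 to 10 for E17.5 against E15.5. It gave 24 to 29 for cholangiocyte-labelled against DLK+ cells, 3 to 6 for their change with age, 5 to 8 for the interaction, 0 to 1 for EpCAM+ against DLK+ hepatoblasts, 2 to 4 for TPPB, 0 to 0 for both U0126 comparisons, and 19 to 23 onsets by E14.5.

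With the library or set number as a replicate block, the counts were 49 for E18.5 against E10.5, 11, 2, 5, 11, 3, 0, 25 and 16 for the day steps, 33, 12, 3 and 10 for the DLK+ comparisons, 27 and 4 for the cholangiocyte comparisons, 8 for the interaction, 0 for EpCAM+ hepatoblasts, 4, 0 and 0 for the explants, and 20 onsets by E14.5. Same-numbered samples correlated at −0.359 to 0.314 in bulk, −0.00624 to 0.145 in the embryo sums and −0.162 to 0.0553 in the explants, so the numbers were not taken to pair samples.

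Of 150 called pairs of a member and a comparison, followed through 1977 values under an alternative, 1743 were called again, 234 were not and 0 reversed. Of the 234, 163 came from a left-out replicate. An alternative chosen after seeing the data left out the embryo cell with a culture protocol. It gave 29 members for cholangiocyte-labelled against DLK+ cells, 5 for the change with age and 7 for the interaction. Low reads limit the members at or under 1 CPM.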
